A study of Mus musculus with 5 samples.

Results

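This account follows BRG1 binding at 10 genes of the G1 phase of the cell cycle in mouse bone marrow-derived macrophages. The genes were taken as a list by name, and the rule uses no measured value: the CIP/KIP inhibitors Cdkn1a, Cdkn1b and Cdkn1c, the INK4 inhibitors Cdkn2a, Cdkn2b, Cdkn2c and Cdkn2d, the kinases Cdk4 and Cdk6, and the cyclin Ccnd1. They are 10 of 20661 protein-coding genes on chromosomes 1 to 19. A peak was assigned to a gene when its summit, the position of highest signal, lay in the gene body or within 20 kb of it. By this rule 26 deposited peaks belonged to the 10 genes. The oxLDL WT list held 16 of them, the oxLDL KO list 8, the WT list 2 and the KO list 0.

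The study measured binding of BRG1, the ATPase of SWI/SNF chromatin remodelling complexes, by sequencing of immunoprecipitated chromatin (ChIP-seq) in primary macrophages of wild-type (WT) mice and of mice with a knockout (KO) of Baf60a, which encodes an accessory subunit of these complexes. Each genotype was assayed without oxLDL and with it. OxLDL is oxidised low-density lipoprotein, a lipid particle that macrophages take up. Each of the 4 groups had 1 BRG1 library, and 1 input library completed the series. The labels do not state the kind of knockout allele, how much oxLDL was used and for how long, or how many mice gave cells. With 1 library per group no difference between groups has a replicate check, and no p-value is given for any comparison.

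Cells enter the cycle through the kinases CDK4 and CDK6, which need a D-type cyclin as partner and together phosphorylate the retinoblastoma protein, releasing E2F transcription factors. INK4 proteins bind CDK4 and CDK6 and block their pairing with cyclin D. CIP/KIP proteins bind a wider set of cyclin-kinase complexes, CDK2 among them. Macrophages grown from bone marrow divide in response to the growth factor M-CSF before they mature, and exit from the cycle goes with inhibitor expression.

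The annotation lists transcription starts for 8 of the 10 genes, and none for Cdkn1c and Ccnd1. Promoter sequence is shown for the 4 genes whose 250 bases before a listed start lay inside a peak or within 100 bases of one, and for Cdkn2b as a gene with no peak. The other listed Cdkn2c start, 80 bases from an oxLDL WT peak by the same measure, is left out. The bases are from RefSeq on GRCm38.p6, the assembly of mm10, in the direction of transcription, and capitals mark matches to the motifs searched. Cdk6 is at chr5:3343643-3343892 on the plus strand, Cdkn2c at chr4:109666757-109667006 on the minus strand, Cdk4 at chr10:127063285-127063534 on the plus strand, Cdkn2d at chr9:21291210-21291459 on the minus strand and Cdkn2b at chr4:89311033-89311282 on the minus strand.
Cdk6: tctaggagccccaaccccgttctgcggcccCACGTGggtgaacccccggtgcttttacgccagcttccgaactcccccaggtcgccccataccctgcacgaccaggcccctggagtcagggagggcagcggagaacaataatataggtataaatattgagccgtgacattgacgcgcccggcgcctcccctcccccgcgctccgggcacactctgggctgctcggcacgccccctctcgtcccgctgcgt
Cdkn2c: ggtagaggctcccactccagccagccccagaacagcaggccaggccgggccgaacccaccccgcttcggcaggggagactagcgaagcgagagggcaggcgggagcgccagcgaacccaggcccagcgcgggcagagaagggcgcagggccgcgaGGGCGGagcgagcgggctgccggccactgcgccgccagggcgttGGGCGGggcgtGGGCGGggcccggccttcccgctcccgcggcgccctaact
Cdk4: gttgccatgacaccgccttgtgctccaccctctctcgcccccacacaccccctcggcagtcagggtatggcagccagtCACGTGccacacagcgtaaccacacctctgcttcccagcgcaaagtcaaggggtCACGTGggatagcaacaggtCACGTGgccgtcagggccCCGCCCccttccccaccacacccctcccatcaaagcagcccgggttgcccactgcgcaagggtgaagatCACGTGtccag
Cdkn2d: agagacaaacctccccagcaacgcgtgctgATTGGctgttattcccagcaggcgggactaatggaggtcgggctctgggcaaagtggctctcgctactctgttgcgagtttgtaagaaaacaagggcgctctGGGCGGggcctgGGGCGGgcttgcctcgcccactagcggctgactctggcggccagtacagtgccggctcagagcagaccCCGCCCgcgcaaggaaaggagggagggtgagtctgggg
Cdkn2b: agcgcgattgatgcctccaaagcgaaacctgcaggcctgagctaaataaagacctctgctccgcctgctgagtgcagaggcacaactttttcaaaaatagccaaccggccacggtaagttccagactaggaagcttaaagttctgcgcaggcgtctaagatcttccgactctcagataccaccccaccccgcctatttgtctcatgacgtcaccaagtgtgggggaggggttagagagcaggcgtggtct

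The Cdk6 stretch lay wholly inside an oxLDL WT peak, with all 250 bases covered. Of the Cdkn2c stretch, 80 bases were covered by an oxLDL KO peak, and the nearest oxLDL WT peak was 283 bases away. At Cdk4 the nearest oxLDL WT peak stood 98 bases away and the nearest oxLDL KO peak 118, on the upstream side. At Cdkn2d they stood 65 and 145 bases away, on the side of the gene. The 9 motifs searched on both strands were GAGGAAGT (PU.1), CCGGAAGT (ETS), TGANTCA (AP-1), CACGTG (E-box), the NRF1 palindrome, GGGCGG (SP1 and KLF factors), TTTCCCGC and TTTGGCGC (E2F) and CCAAT (NF-Y). Matches of different motifs did not overlap in the sequences shown. The Cdk4 stretch held CACGTG at 4 places, starting 172, 118, 98 and 11 bases before the transcription start, and Cdk6 held it at 1 place, 220 bases before. Among 20084 listed starts of protein-coding genes, 6.69% had CACGTG in the same 250 bases. GGGCGG was found at 3 places in Cdkn2c and in Cdkn2d and at 1 place in Cdk4, against 43.4% of all starts with at least 1. Cdkn2d also had CCAAT at 1 place, a motif found at 35.3% of all starts. The Cdkn2b stretch held none of the 9 motifs. Motifs also occurred without a peak. Before the Cdkn2a start at 89294619, not shown, GGGCGG was found at 2 places and TTTCCCGC at 1, the latter against 1.19% of all starts. The other Cdkn2a start and the left-out Cdkn2c start, which is near a peak, held none of the 9. A match describes the letters and does not show that a factor binds.

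Before oxLDL, Cdk6 was the one gene of the set with a peak. In the WT list 1 of 10 genes had a peak, where 1.26% of all protein-coding genes did, and in the KO list 0 of 10 did, against 0.586% of all. After oxLDL, 7 of 10 genes had a peak in WT (Cdkn1a, Cdkn1b, Cdkn2c, Cdkn2d, Cdk4, Cdk6 and Ccnd1) and 5 of 10 in KO (Cdkn1b, Cdkn2c, Cdkn2d, Cdk4 and Cdk6). Of all genes, 35.1% had an oxLDL WT peak and 22.3% an oxLDL KO peak by the same rule. Long genes offer a wider window, so genes were also split into 5 equal groups by length. In the shortest group, which holds Cdkn1c, Cdkn2d and Cdk4, 18.2% of genes had an oxLDL WT peak and 10.8% an oxLDL KO peak. In the next group, with Cdkn1a, Cdkn1b, Cdkn2b, Cdkn2c and Ccnd1, the shares were 32.9% and 19.7%. In the group of Cdkn2a they were 37.0% and 22.5%, and in the longest group, with Cdk6, 45.3% and 31.1%. The counts of 7 and 5 did not move when the window was narrowed to 1 kb, where 22.9% and 13.9% of all genes had a peak.

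**Figure D1:**
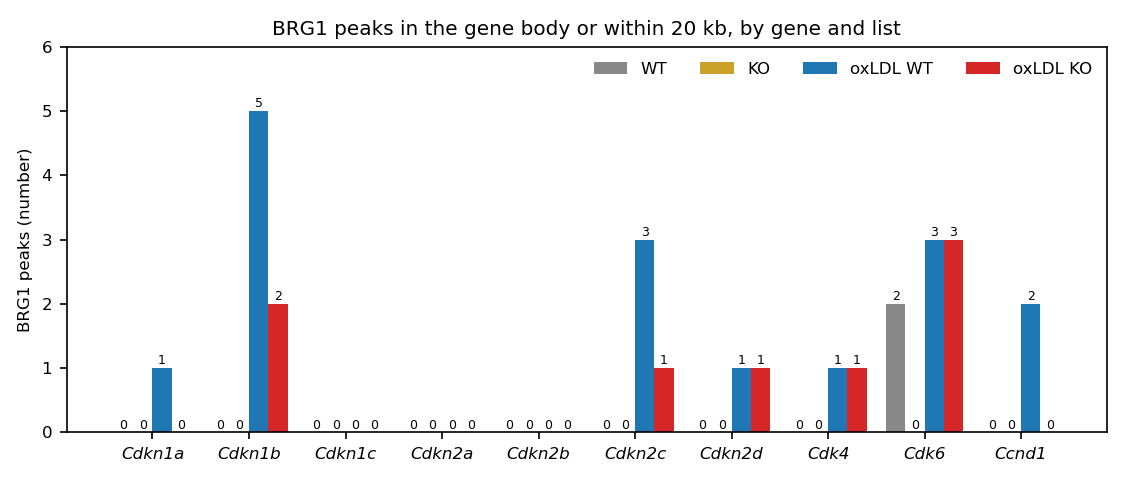
Number of BRG1 peaks (y axis) in the body or within 20 kb of each of the 10 genes (x axis), with 1 bar per deposited list. Cdkn1b has the tallest bar, 5 peaks in oxLDL WT, Cdk6 is the gene with bars in 3 lists, and Cdkn1c, Cdkn2a and Cdkn2b have none.

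Peaks at these genes were fewer in oxLDL KO than in oxLDL WT, as was the whole list. The 16 oxLDL WT peaks were 0.162% of the 9907 peaks of that list (exact binomial 95% interval 0.0923 to 0.262), and the 8 oxLDL KO peaks were 0.171% of 4668 (0.0740 to 0.337). The intervals, which cover counting error only, overlap. In the lists without oxLDL, the 2 WT peaks were 0.844% of 237, and the KO list had 139 peaks in all. Over the joint span of the 10 windows, 626.7 kb, the density was 2.55 oxLDL WT peaks and 1.28 oxLDL KO peaks per 100 kb, against 0.646 and 0.304 over the windows of all protein-coding genes.

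Counted by place, the 26 peaks formed 19 sites when peaks of different lists that shared at least 1 bp were joined. Of these, 10 sites were listed in oxLDL WT alone, 3 in oxLDL KO alone and 4 in both oxLDL lists. Another site was listed in WT, oxLDL WT and oxLDL KO, and 1 in WT and oxLDL WT, these last 2 at Cdk6. No site was in all 4 lists. Of the 16 oxLDL WT peaks, 5 (31.2%, exact interval 11.0 to 58.7) overlapped an oxLDL KO peak, and 27.3% of all oxLDL WT peaks did. In the other direction 5 of 8 oxLDL KO peaks (62.5%, 24.5 to 91.5) overlapped an oxLDL WT peak, and 59.6% of all oxLDL KO peaks did. Gene by gene, 5 of 10 had a peak in each of the oxLDL lists, as 18.6% of all genes did, and at 4 of 10 (Cdkn1b, Cdkn2d, Cdk4 and Cdk6) such peaks overlapped, as at 14.8% of all. Both shares of matched peaks have wide intervals that take in those of the whole lists. With summits within 200 bp required in place of overlap, 3 of 16 oxLDL WT peaks (18.75%) were matched, against 20.04% of that list, and 3 of 8 oxLDL KO peaks (37.5%), against 42.5%. Seen against its gene, an oxLDL WT summit lay within 1 kb of a gene end in 5 cases, elsewhere in the body in 5 and outside by 1 to 20 kb in 6. For oxLDL KO summits these numbers were 5, 2 and 1, and both WT summits lay in the body of Cdk6. Shares of these position classes over the whole lists are not given, and a difference in position between the lists was not tested. The farthest assigned summit was 10170 bp from its gene, and no summit of any list lay between 20 and 30 kb from any of the 10 genes.

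Peak heights were modest. The deposited fold enrichment, the pileup at the summit over the local background, ran from 2.75 to 5.67 with a median of 3.63 in oxLDL WT, where the whole list had a median of 3.75. In oxLDL KO it ran from 2.73 to 4.75 with a median of 3.28, against 3.85 for the list. Above the median of their own list stood 7 of 16 oxLDL WT peaks and 1 of 8 oxLDL KO peaks, the latter at Cdkn2d. Pileups were solved from fold enrichment and p-value and are given as fragments. The sources used here do not state whether the caller piled up whole fragments or single reads extended to fragment length, and the Poisson intervals below treat each as an independent count. The pileups were 13 to 26 fragments for oxLDL WT peaks and 12 to 20 for oxLDL KO peaks. The smallest pileup that entered a list was 15 in KO and 12 in the other lists. Background at the 26 peaks was at most 1.57 times the lowest value of its list, so none lay in a region of high background.

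**Figure D2:**
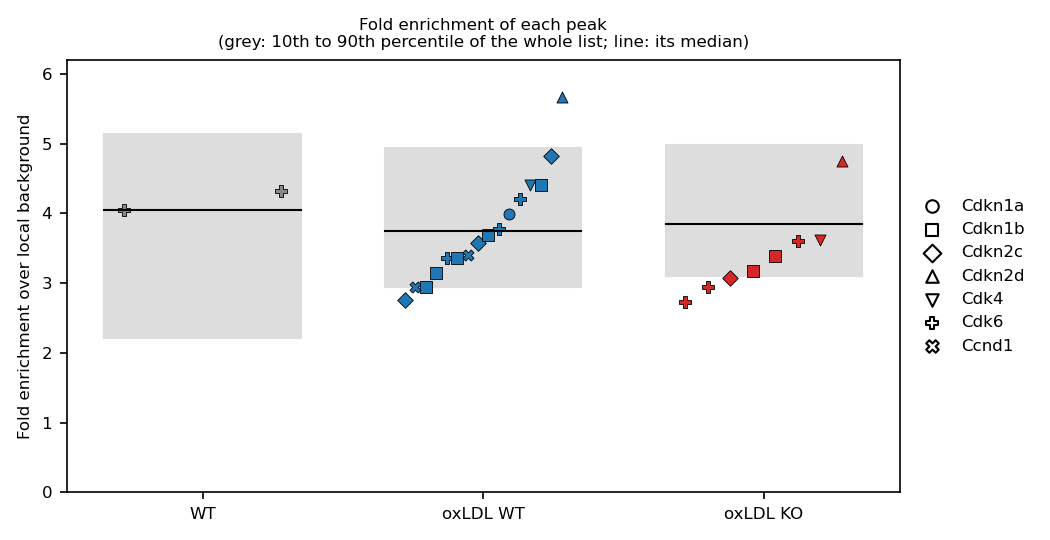
Fold enrichment over local background (y axis) of each peak at the 10 genes in the 3 lists that have any (x axis), with 1 symbol per gene. Grey boxes span the 10th to 90th percentile of the whole list and the black line is its median. The Cdkn2d peaks are the highest of these genes in both oxLDL lists, and 7 of 8 oxLDL KO peaks lie under the list's median.

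Among the CIP/KIP genes, Cdkn1b, which encodes p27, carried the most peaks (chromosome 6, 134920401 to 134925525, plus strand). In oxLDL WT 5 summits were assigned to it, a number reached by 2.53% of all genes, and in oxLDL KO 2. The highest oxLDL WT peak had a fold enrichment of 4.41 and 20 fragments, with its summit 419 bp after the transcription start. An oxLDL KO peak of 3.39 and 14 fragments had its summit 391 bp after the start, and all of its 236 bp lay within the oxLDL WT peak of 591 bp. This site just inside the gene was thus listed in both genotypes. A further matched site lay behind the gene, with summits 1306 bp past its end in oxLDL WT (3.15, 14 fragments) and 1820 bp past it in oxLDL KO (3.17, 13 fragments). Its summits were 514 bp apart, although the narrower peak lay wholly in the wider. The other 3 oxLDL WT peaks had no counterpart in oxLDL KO. They lay 3632 bp upstream of the gene (2.94, 13 fragments), 1531 bp after the start in the body (3.36, 15 fragments) and 7717 bp past the end (3.69, 17 fragments). The nearest other protein-coding gene, Gpr19, was 18575 bp from the closest of these summits. Lockd, a gene not annotated as protein-coding, lay within 1 kb of the summit 7717 bp past the end.

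Cdkn1a encodes p21, a target of p53 that stops the cycle after DNA damage (chromosome 17, 29090979 to 29100722, plus strand). It had 1 peak, in oxLDL WT, from 29093995 to 29095118. At 1124 bp this was the widest of the 26, with a fold enrichment of 3.99, 18 fragments and percentile 64.9 in its list. The summit lay 3930 bp after the first listed start and 1140 bp after the other, in the gene body. In oxLDL KO the nearest summit was 138 kb from the gene. Cdkn1c, which encodes p57 and is imprinted (chromosome 7, 143458339 to 143461059), had no peak. Its nearest oxLDL WT summit was 85.0 kb away and its nearest oxLDL KO summit 87.6 kb, and over all genes the median distance was 54.9 and 119 kb.

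The INK4 family split by locus. Cdkn2a (chromosome 4, 89274473 to 89294619), whose listed starts number 2 and which encodes the INK4 protein p16 and, in another reading frame, the MDM2 inhibitor p19ARF, had no peak in any list. Its neighbour Cdkn2b, 11.7 kb away (chromosome 4, 89306289 to 89311032), encodes p15 and also had none. The windows of these genes overlap, so their absence is not 2 separate observations. The nearest summit was 137 kb from Cdkn2a in each oxLDL list, and 169 kb from Cdkn2b. With Cdkn1c they made 3 of 10 genes with no peak in any list, and 61.0% of all genes had none.

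Cdkn2d, which encodes p19INK4d, had the highest peak of the set in both oxLDL lists (chromosome 9, 21288459 to 21291421, minus strand). The oxLDL WT peak, from 21290769 to 21291144, had a fold enrichment of 5.67, 26 fragments (exact Poisson 95% interval 17.0 to 38.1) and rank 355 of 9907. The oxLDL KO peak, from 21290688 to 21291064, had 4.75, 20 fragments (12.2 to 30.9) and rank 564 of 4668. They shared 296 bp, and their summits lay 204 and 336 bp after the transcription start. The fragment intervals overlap, but pileups were not scaled between the libraries, and a difference in height was not tested. No WT peak without oxLDL was nearer than 291 kb.

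Cdkn2c, which encodes p18, had 3 oxLDL WT peaks and 1 oxLDL KO peak, and none of them matched (chromosome 4, 109660876 to 109666756, minus strand). The highest, in oxLDL WT, had a fold enrichment of 4.83 and 22 fragments (13.8 to 33.3), and its summit lay 873 bp after the first listed start and 511 bp before the other. The oxLDL KO peak, 3.07 with 16 fragments, had its summit 249 bp before the first start. A gap of 453 bp separated these 2 peaks, and their summits were 1122 bp apart. Each genotype thus had a peak at this promoter region, and the peaks did not overlap. Under the rule of less than 500 bp apart they would count as matched. Whether the places of binding differ was not tested. Local background at the oxLDL KO peak was 1.33 times the lowest of its list. The remaining oxLDL WT peaks lay 3714 bp past the end of the gene (3.57, 16 fragments) and 10170 bp upstream of it (2.75, 18 fragments). The latter was inside Faf1, 299 bp from an end of that neighbouring gene. It was the only one of the 26 nearer to another protein-coding gene than to the listed one. The peak past the end of Cdkn2c had 9630013D21Rik, a gene not annotated as protein-coding, within 1 kb of its summit.

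**Figure D3:**
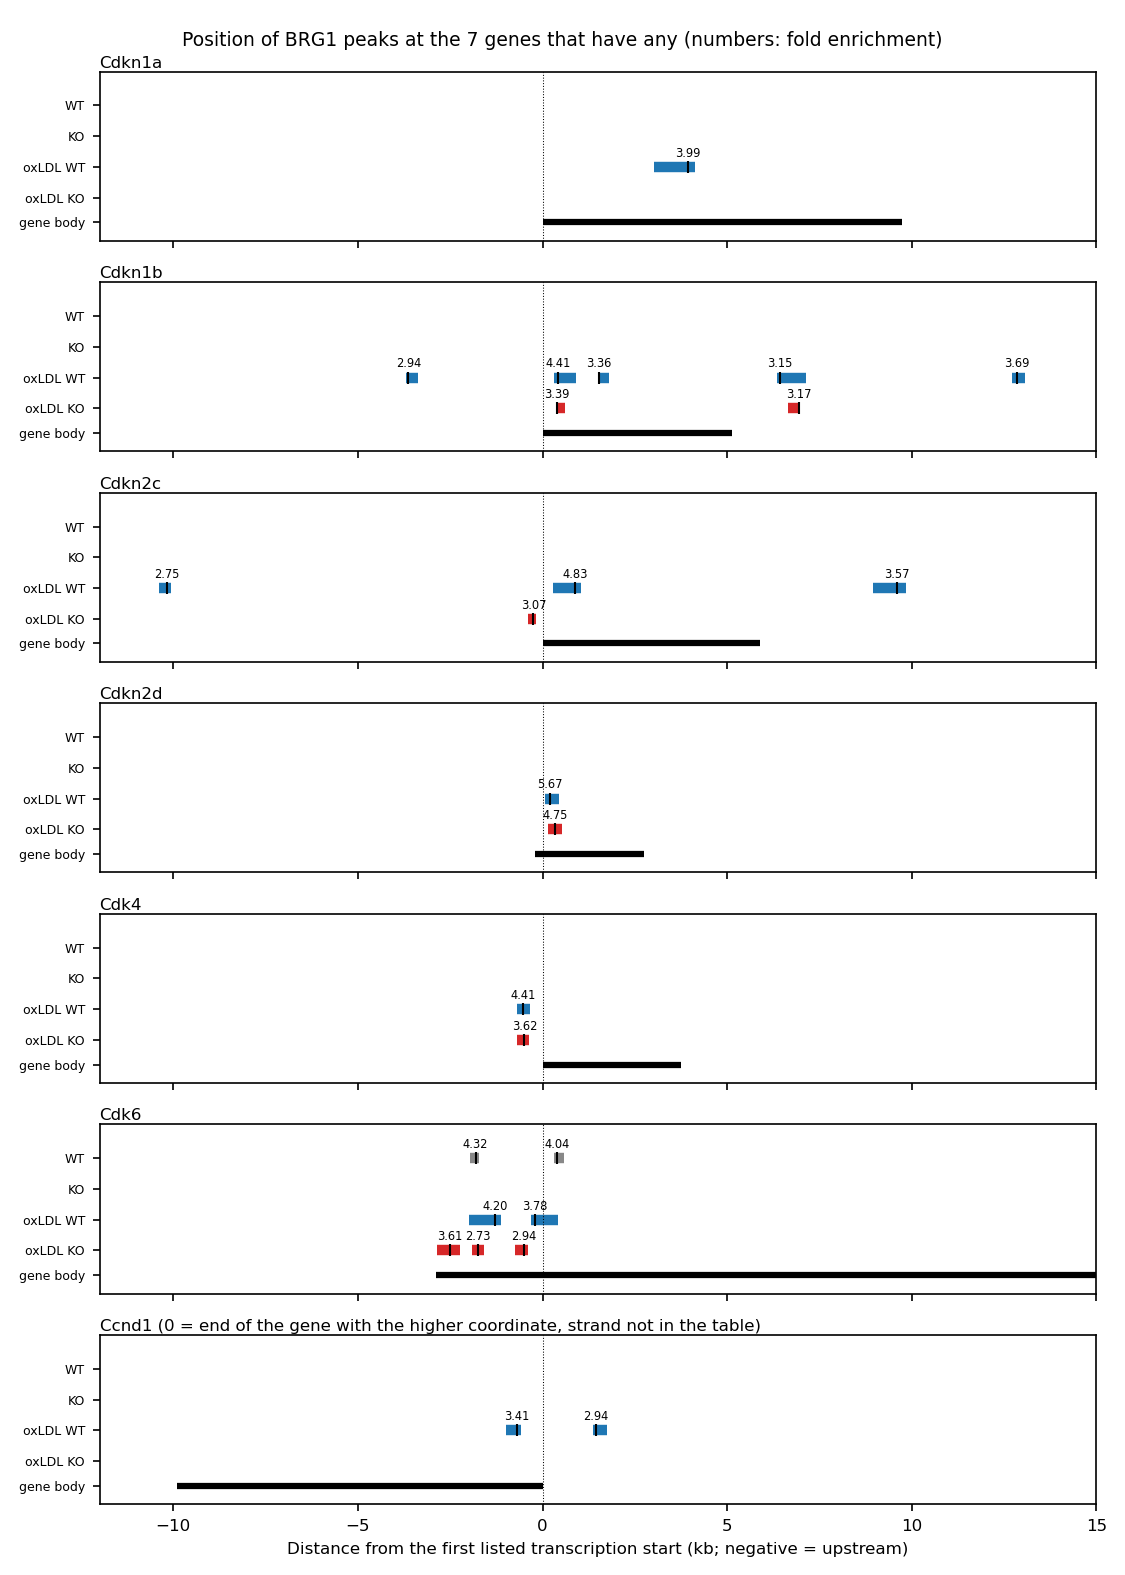
Peaks of the 4 lists (rows in each panel) at the 7 genes that had any, by distance in kb from the first listed transcription start (x axis), or from the higher-coordinate end for Ccnd1. Coloured bars are peaks, ticks are summits with their fold enrichment, and black bars are gene bodies. The Cdk6 panel leaves out an oxLDL WT peak 147 kb after the start. Peaks of both oxLDL lists lie at the starts of Cdkn1b, Cdkn2d and Cdk4, while at Cdkn2c they lie side by side.

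The kinase genes differed in extent. Cdk4 (chromosome 10, 127063535 to 127067288, plus strand) had 1 peak in each oxLDL list at nearly the same place, with summits 528 bp (oxLDL WT) and 495 bp (oxLDL KO) upstream of the start. The oxLDL WT peak had a fold enrichment of 4.41 and 20 fragments (12.2 to 30.9), and the oxLDL KO peak 3.62 and 15 fragments (8.40 to 24.7). The whole 324 bp of the oxLDL KO peak lay within the oxLDL WT peak, and the summits were 33 bp apart. This place lies upstream of the stretch with 4 CACGTG matches shown above, not on it. Marchf9, the nearest other protein-coding gene, was 2823 bp from the oxLDL WT summit.

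Cdk6 spans 190.0 kb (chromosome 5, 3341004 to 3531008, plus strand). In the first few kb of the gene body, around the listed start at 3343893, lay 7 of its 8 peaks. Gm36470, a gene not annotated as protein-coding, was within 1 kb of each of these 7 summits. Cdk6 is the listed gene, and the peaks are described by their position to it. Cdk6 was the one gene of the set with WT peaks before oxLDL, 2 in number, which 0.0678% of all genes reached. Their fold enrichments were 4.32 (15 fragments, rank 71 of 237) and 4.04 (14 fragments, rank 128), with summits 1814 bp before and 384 bp after the listed start. In oxLDL WT the peaks there had 4.20 (19 fragments) and 3.78 (17 fragments), with summits 1278 and 207 bp before the start. In oxLDL KO there were 3, with 3.61, 2.73 and 2.94 (15, 13 and 12 fragments) and summits 2508, 1756 and 496 bp before the start. In the untreated KO list the nearest summit was 11.5 Mb (11524 kb) from the gene, where the median over all genes was 7686 kb. The smallest pileup in that list of 139 peaks was 15 fragments, and the WT peaks of Cdk6 had 15 and 14. Their absence from the KO list is therefore not a tested loss. Peaks in WT and in both oxLDL lists were found at 0.905% of all genes.

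The first WT peak of Cdk6 lay at a site listed in WT, oxLDL WT and oxLDL KO. It shared all of its 228 bp with the oxLDL WT peak from 3341894 to 3342769, and 188 bp with the oxLDL KO peak from 3341973 to 3342320. The other WT peak shared 111 bp with the oxLDL WT peak from 3343569 to 3344321 and none with an oxLDL KO peak. Of all WT peaks, 75.9% overlapped an oxLDL WT peak and 65.0% an oxLDL KO peak. Summits of the WT and oxLDL WT peaks were 536 and 591 bp apart, while those of the first WT peak and the oxLDL KO peak it overlapped were 58 bp apart. The oxLDL KO peaks not matched to oxLDL WT lay 246 and 80 bp from an oxLDL WT peak. The remaining Cdk6 peak was in oxLDL WT, 147 kb after the start in the gene body (3.36, 15 fragments).

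Ccnd1, which encodes cyclin D1, the partner of both kinases (chromosome 7, 144929931 to 144939831), had peaks in oxLDL WT only, and this is an absence from the oxLDL KO list rather than a tested loss. With Cdkn1a it made 2 of 10 genes with a peak in oxLDL WT and none in oxLDL KO, a pattern of 16.6% of all genes. Of the 10 genes, 0 had the reverse pattern, which 3.76% of all genes had. The annotation used gives no strand for Ccnd1, so its ends are named by coordinate. The higher peak, from 144938841 to 144939255, had a fold enrichment of 3.41 and 18 fragments, with its summit inside the gene 694 bp from the higher-coordinate end. The other, from 144941199 to 144941586, had 2.94 and 13 fragments, 1440 bp beyond that end. In oxLDL KO the nearest summit was 150 kb away.

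What a missing oxLDL KO peak can mean is limited by the small pileups. A median of 17 fragments lay under the 11 oxLDL WT peaks with no oxLDL KO match, and 20 under the 5 with one. Their median fold enrichments were 3.41 and 4.41. The whole oxLDL WT list had the same order, with 3.57 for unmatched and 3.99 for matched peaks. For 10 of the 11 unmatched peaks at these genes, the exact Poisson 95% interval of the pileup reached down to 12 fragments, the smallest pileup in the oxLDL KO list. The exception was the Cdkn2c peak with 22 fragments. Among the 5 matched oxLDL WT peaks the interval reached down to 12 for 2. The median pileup was 17 in each whole oxLDL list, and the interval of 17 fragments (9.90 to 27.2) also reaches 12. Such reach is thus common in the lists and not particular to these genes. The lowest background of the oxLDL WT list was 3.76 fragments and that of the oxLDL KO list 3.42. Total reads are not known from the peak lists, so the depth of these libraries was not compared and pileups were not scaled between them. For all 3 oxLDL KO peaks with no oxLDL WT match, the interval likewise reached the smallest oxLDL WT pileup, 12, and all 3 lay under 500 bp from an oxLDL WT peak.

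**Figure D4:**
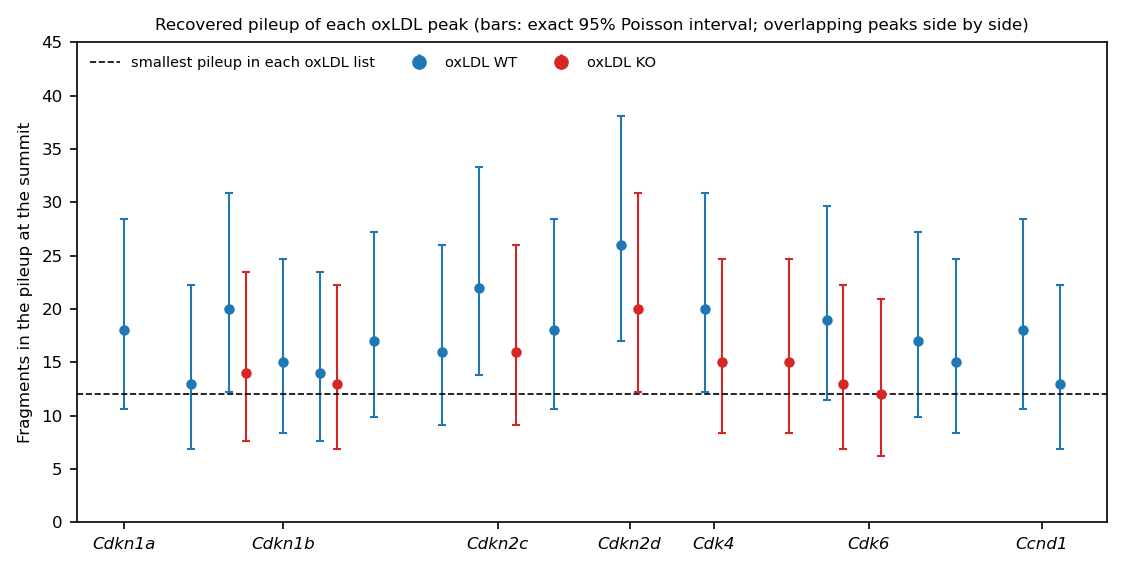
Fragments in the pileup at the summit (y axis) of each oxLDL peak, grouped by gene (x axis), with exact Poisson 95% intervals that cover counting error only. Overlapping peaks of both genotypes stand side by side, and the dashed line at 12 is the smallest pileup in each oxLDL list. Of 24 intervals 19 reach the line, and those of both Cdkn2d peaks and of the highest oxLDL WT peaks of Cdkn1b, Cdkn2c and Cdk4 stay above it. The interval of 17 fragments, the median pileup of each whole oxLDL list, reaches the line as well.

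Stricter limits left fewer peaks at these genes, as they did in the whole lists. The deposited −log10 q measures the significance of a peak after adjustment, higher being stronger. At a −log10 q of at least 5, 4 of 16 oxLDL WT peaks were left (25%, against 25.4% of that list), at Cdkn1b, Cdkn2c, Cdkn2d and Cdk4. Of 8 oxLDL KO peaks 1 was left (12.5%, against 19.8%), at Cdkn2d, and of 2 WT peaks 0, against 29.1%. The lists end at different p-values, so a −log10 p limit of 5.33 was also set for all. It left 12 oxLDL WT peaks at 7 of the genes (75.0%, against 79.9% of the list) and 4 oxLDL KO peaks at 4 of the genes (50%, against 85.7%). These were 0.152% of the oxLDL WT peaks above the limit (0.0783 to 0.265, exact binomial as above). Among oxLDL KO peaks above it the share was 0.1000% (0.0272 to 0.256). The order of these shares is the reverse of that without the limit, and in both cases the intervals overlap.

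Base composition was compared at listed starts. Of the 11 listed starts of the 8 genes with any, 6 had an oxLDL WT summit within 1 kb and 5 an oxLDL KO summit, where 16.7% and 9.96% of all starts did. Both Cdkn2c starts were counted through the same oxLDL WT summit, 873 and 511 bp away, so the 6 are not separate observations. G and C made up a median of 64.4% of the 250 bases before the 6 starts and 60.0% before the 5 without an oxLDL WT summit, with ranges of 42.8 to 77.2% and 53.6 to 78.4%. The groups overlap, and the highest value belonged to the first Cdkn2a start, which had no peak. Over all starts the medians were 64.0% with and 54.4% without an oxLDL WT summit.

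Other genes of the same pathway were taken as a list of 39 by role. In oxLDL WT 16 of 39 (41.0%) had a peak, against 35.1% of all genes. In oxLDL KO 14 (35.9%) had a peak, against 22.3%. In both lists 10 of 39 had a peak, where 18.6% of all genes did. The 39 genes were not split by length. The pocket protein genes, whose products CDK4 and CDK6 phosphorylate, all 3 had an oxLDL WT peak: Rbl1 had highest fold enrichments of 5.21 among oxLDL WT peaks and 4.03 among oxLDL KO peaks, Rb1 3.99 and 3.85, and Rbl2 3.57 in oxLDL WT alone. Of 10 E2F and DP factor genes, 3 had an oxLDL WT peak and 4 an oxLDL KO peak, among them E2f8 (4.62 and 3.62) and E2f2 (4.20 and 4.07), with E2f5 in oxLDL KO alone (4.07). Of the other D cyclins, Ccnd3 had 3.14 in oxLDL WT alone and Ccnd2 had no peak. The 6 cyclin E, A and B genes had none in any list, as was the case for 61.0% of all genes. Cdk2 (3.39) and Cdk7 (2.94) had a peak in oxLDL KO alone, and Mnat1 (3.57) in oxLDL WT alone. Among phosphatase genes that activate the kinases, Cdc25b had 6.09 in oxLDL WT alone and Cdc25a 3.36 and 3.62. Cks1b, a gene of p27 turnover, had 4.20 in oxLDL WT alone, and Skp2, listed for the same role, had no peak. Fbxw7 had 3.57 and 3.39, and Wee1, an inhibitory kinase gene, had 3.57 and 3.61. Upstream regulators included Foxo3, the one listed gene with a peak in all 4 lists (4.20 with oxLDL in WT, 4.98 with oxLDL in KO, and 3.78 and 3.72 without it), Myc (3.69 and 3.62), Mdm2 (3.64, oxLDL WT alone) and Foxo1 (3.40, oxLDL KO alone). Values of a gene in different lists are its highest peak in each and need not be the same site.

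The targeted gene, Smarcd1, which encodes BAF60a, had 2 peaks within 20 kb in oxLDL WT and 0 in the other lists, which does not show whether it was deleted. All 8 macrophage marker genes examined (Spi1, Csf1r, Adgre1, Cd68, Itgam, Lyz2, Tyrobp and Mpeg1) had a peak within 20 kb in each oxLDL list. The shares over all genes were 35.1% for the oxLDL WT list and 22.3% for the oxLDL KO list. Without oxLDL, 1 of the 8 had a peak in the WT list and 1 in the KO list. Of 6 markers of lymphocytes, neutrophils and fibroblasts, 0 had a peak in any list, where 61.0% of all genes had none. A BRG1 peak is not an expression level, and none of the peaks described here shows whether its gene was active.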

How the data were processed

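BRG1 ChIP-seq peak lists of 4 libraries were used, with groups taken from the sample titles; the input was not analysed here. Tools listed in the submitters' processing notes are MACS3, Bowtie2, Trimmomatic 0.33 and bcl2fastq 2.17, with the build mm10. Parameters, and any use of the input as control, are not stated there. The authors deposited a separate list for each library and pooled none. Each deposited peak has a score (the whole part of 10 times −log10 q), a fold enrichment (a ratio of pileup to local background), −log10 p and −log10 q values and a summit offset. Fold enrichment is the authors' value and serves for description and for ranks inside 1 list.

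Positions are 1-based on mm10. Genes came from RefSeq on GRCm38.p6: 20661 protein-coding genes on chromosomes 1 to 19, where all peaks lay. Transcription starts, strand and promoter sequence came from the RefSeq promoter table, which holds 8 of the 10 genes. Peaks matched when they shared at least 1 bp. Taking fold enrichment as (pileup + 1)/(background + 1) and p as the Poisson tail, pileup and background were solved per peak. Pileups came out whole, with a tolerance of 2% of the −log10 p step from 1 pileup to the next, for 99.98% of solvable peaks in oxLDL KO, 99.95% with oxLDL in WT, 99.5% in untreated WT and 96.0% in untreated KO, and for all 26 peaks described. Peaks with a −log10 p of 250 or more were not solved. The solver, window counts and overlaps were tested on simulated data. Total reads are not known from peak lists. Python 3.11.15, pandas 2.3.3 and scipy 1.17.1 were used.

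The genes and lists were chosen with earlier results of these data known. All 10 genes are named with every peak. Of the 39 other cell cycle genes, up to 2 per role with overlapping oxLDL peaks and up to 2 with a peak in 1 oxLDL list were named, by fold enrichment. Alternatives were other thresholds, windows, gene assignment and rules for a match.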

Additional observations from a re-analysis of the deposited data

How the results depend on the processing

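No paired analysis was possible because each group has 1 library, and no replicate could be left out. At a −log10 q of at least 5, peaks at the 10 genes numbered 0 in WT, 4 in oxLDL WT and 1 in oxLDL KO, at 0, 4 and 1 of the genes. At a −log10 q of at least 2, oxLDL KO kept 4 peaks, and 0 of the 39 other cell cycle genes had a WT peak. With the same −log10 p limit in all lists, oxLDL KO had 4 peaks. A window of 1 kb left 10 oxLDL WT peaks, and 0 of the other cell cycle genes then had a KO peak. Counting peaks less than 500 bp apart as matched, 100% of oxLDL KO peaks had an oxLDL WT match. With summits within 200 bp required, 0% of the WT peaks had one, and matched shares fell to 18.75% of oxLDL WT and 37.5% of oxLDL KO peaks. With overlap of at least 50% of the shorter peak, 50% of WT peaks were matched, and the shares between the oxLDL lists did not move. The stricter limits and narrower windows leave fewer peaks by construction. Windows of 5 and 50 kb moved no count of peaks or genes by more than 1.5 times. Neither did assignment to the nearest protein-coding gene or any base in the window.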
